A study of Drosophila melanogaster with 24 samples.

Results

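The proteasome subunit genes of Drosophila melanogaster were examined in embryos depleted of HDAC3, a histone deacetylase that acts with the corepressor SMRTER. Embryos from mothers with HDAC3 rescue transgenes were examined too. Members were the genes whose FlyBase symbol begins with Prosalpha, Prosbeta, Rpn or Rpt followed by a digit, which gave 48 of the 17559 genes in the count table. Whole embryos 2 to 4 h old were pooled for each sample, and total RNA was sequenced from 24 libraries, 4 replicates of each of 6 genotypes. The genotypes are those of the mothers, in whose germline the knockdown took place. All 6 genotypes included tub-GAL4, a driver that supplies GAL4 from the mother, and Control mothers had this driver alone. HDAC3 shRNA mothers also carried the hairpin against HDAC3. The remaining 4 genotypes carried driver, hairpin and 1 hairpin-resistant HDAC3 transgene under the HDAC3 promoter: rescue WT with the wild-type protein, rescue Y303F with a substitution in the catalytic site, and rescue K26A and rescue HEBI with mutations made to weaken binding to SMRTER. That binding was lowered slightly in K26A and strongly in HEBI in the study's tests. Deacetylase activity was reduced in all of Y303F, K26A and HEBI, to a comparable degree, in the study's assay. Endogenous HDAC3 RNA was also present in Y303F embryos according to the study, which limits that group as a model. HDAC3 itself was listed at 0 in all 24 libraries, so the knockdown could not be checked here and genotypes are given as labelled. The study counted HDAC3 reads in its RNA-seq and reported very little HDAC3 RNA in the knockdown.

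The proteasome degrades proteins that carry ubiquitin chains. Its 20S core is a barrel of stacked rings, in which alpha subunits gate the entry and beta subunits hold the proteolytic sites. The 19S regulatory particle caps the barrel: its base holds a ring of ATPases (Rpt) that unfold substrates together with non-ATPase subunits (Rpn) that bind ubiquitin, and its lid removes the chains. Drosophila mothers load proteasome RNA and protein into the egg, many subunit genes have paralogues expressed in the testis, and in flies the factor CncC can raise the subunit genes as a group.

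Of the 48 members, 32 encoded the standard subunits, 7 of the alpha ring, 7 of the beta ring, 6 base ATPases, 4 base non-ATPases (Rpn1, Rpn2, Rpn10 and Rpn13) and 8 of the lid (Rpn3, Rpn5, Rpn6, Rpn7, Rpn8, Rpn9, Rpn11 and Rpn12). The other 16 were paralogues. In all, 36 members passed the filter on low counts and entered the tests, 31 standard subunits and 5 paralogues (Prosalpha6T, Prosbeta2R1, Prosbeta2R2, Rpt3R and Rpt6R). Of the 12 members not tested, Prosbeta5R1 had no count in any library and 10 paralogues had at most 9. The remaining one, the alpha ring gene Prosalpha1, was also listed at 0 in all 24 libraries, which is not read as absence of its RNA. Only 17 of the 969 exon bases of Prosalpha1 are shared with phr on the opposite strand, a gene that had 141 to 1347 counts. The paralogue Prosalpha1R, 1734 bases away on the same strand, had 1 count in total, which is likewise not read as absence. Why both were near 0 was not tested. The tested standard subunits had 438 to 18954 counts in each library, so counting error was small beside the spread between replicates. The members were spread over the genome, with 8 on 2L, 13 on 2R, 7 on 3L, 14 on 3R and 6 on X.

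Library totals ran from 9987223 to 26573692 counts. Values below are CPM, the usual per-million scaling of counts, on normalised library sizes. Early embryo markers were present: 7 maternal RNAs summed to 2571 to 8301 CPM and 12 early zygotic genes to 1406 to 4068 CPM. Of the latter, Sry-alpha was at 0. Markers of differentiated late embryonic cells (10 genes) were present too, summing to 13.6 to 1254 CPM, with the highest sum in Control. In Control replicate 3 the muscle gene Mhc stood at 332 CPM and the cuticle gene TwdlM at 196 CPM. Whether some pools held older embryos was not tested. As the samples are whole embryos, fewer cells of a type and less RNA per cell cannot be told apart. The labels give all genotypes the replicate numbers 1 to 4 without saying what a number stands for or whether the samples came from separate crosses, so p-values measure the spread between these samples. A gene passed the test at an adjusted p of 0.05 or less in edgeR's quasi-likelihood test over all 10003 genes tested. Libraries with the same number varied together, and each comparison is therefore also given with the replicate number as a block.

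In Control embryos the core subunits were similar to each other in level, and the subunits of the regulatory particle were not. Per kilobase of exon, the 13 measured core subunits lay between 241 and 480 CPM (median 403), while the 18 subunits of the regulatory particle ranged from 40.1 to 378 CPM (median 63.2). In the alpha ring, Prosalpha5 was highest at 467 ± 169 CPM per kb and Prosalpha3 lowest at 241 ± 112 (SD, n = 4). In the beta ring, the structural subunit Prosbeta6 was highest at 480 ± 128 CPM per kb, and Prosbeta2, which carries the trypsin-like site, was lowest at 314 ± 80.4 (SD, n = 4). The levels of neighbouring core subunits in this order overlapped within their SDs.

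The spread inside the regulatory particle came from a few abundant subunits. Among the ATPases, Rpt4 stood at 378 ± 63.3 CPM per kb and Rpt5 at 57.0 ± 16.0 (SD, n = 4), a 6.63-fold difference. In the lid, Rpn12 was at 350 ± 119 CPM per kb and Rpn8, the partner of the deubiquitinase Rpn11, at 44.4 ± 12.3, a 7.88-fold difference. Rpn6, a lid scaffold subunit, was next to Rpn12 at 161 ± 41.1 CPM per kb. Rpt4 and Rpn12 thus stood at core level. The base non-ATPases were all low, from Rpn1, a docking site for ubiquitin shuttles, at 40.1 ± 13.8 CPM per kb to the ubiquitin receptor Rpn10 at 65.7 ± 10.7. The tested paralogues were lower still, between 0.204 CPM per kb for Prosalpha6T and 3.94 for Rpt3R.

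**Figure D1:**
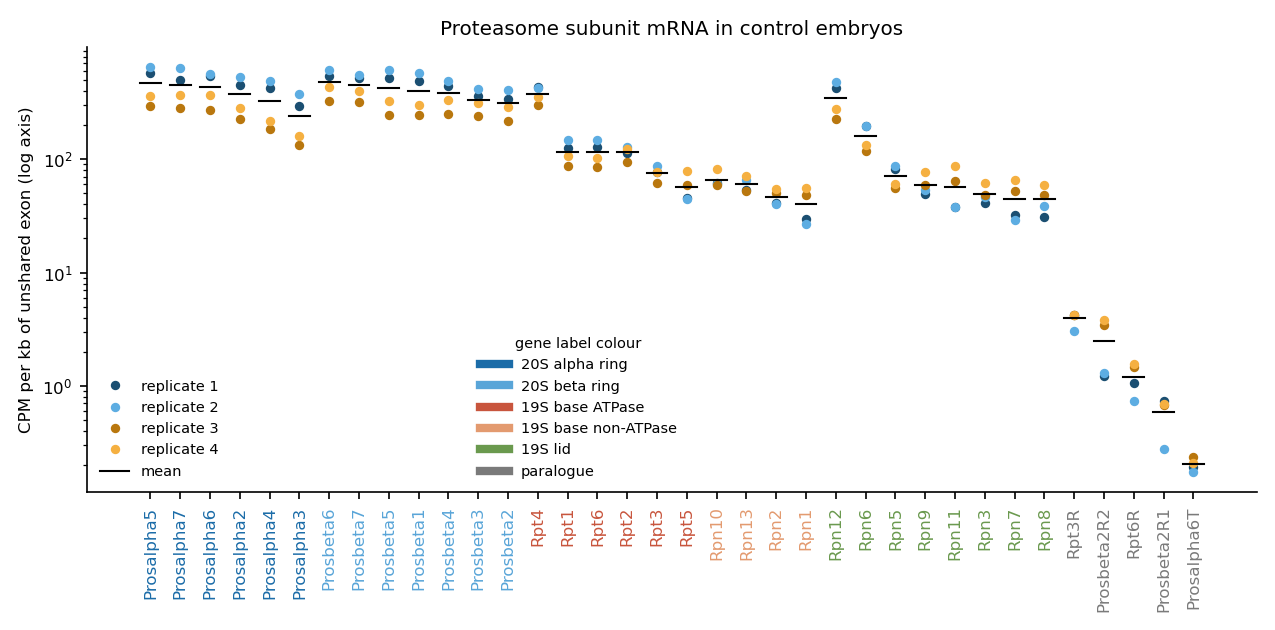
CPM per kilobase of exon bases shared with no other gene (log axis) of each tested member in the 4 Control libraries, with gene names coloured by subcomplex. Points are libraries, coloured by replicate number, and lines are means. The means of the core subunits lie between 241 and 480, those of Rpt4 and Rpn12 stand with them, and those of the paralogues reach 3.94 at most.

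The first comparison asked how the subunit genes responded to loss of HDAC3. Every subcomplex had a higher summed level in HDAC3 shRNA embryos than in Control embryos of the same replicate number. The 20S subunits together measured 5900.0, 6788, 3181 and 4076 CPM in Control replicates 1 to 4, and 8231, 8698, 5151 and 6998 CPM in HDAC3 shRNA. The 19S base subunits together measured 1713, 1803, 1473 and 1803 CPM in Control and 2602, 2483, 1764 and 2097 CPM in HDAC3 shRNA. The lid subunits measured 1235, 1326, 953 and 1149.8 CPM in Control and 1706, 1866, 1157 and 1325 CPM in HDAC3 shRNA. The groups overlapped for each sum, but within each pair the HDAC3 shRNA library was higher. Replicates 3 and 4 were lower than replicates 1 and 2 in both genotypes for the 20S and the lid, while in the base Control replicate 4 was as high as replicate 2. All 31 standard subunits together were 1.42-fold, 1.32-fold, 1.44-fold and 1.48-fold higher in the 4 pairs.

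**Figure D2:**
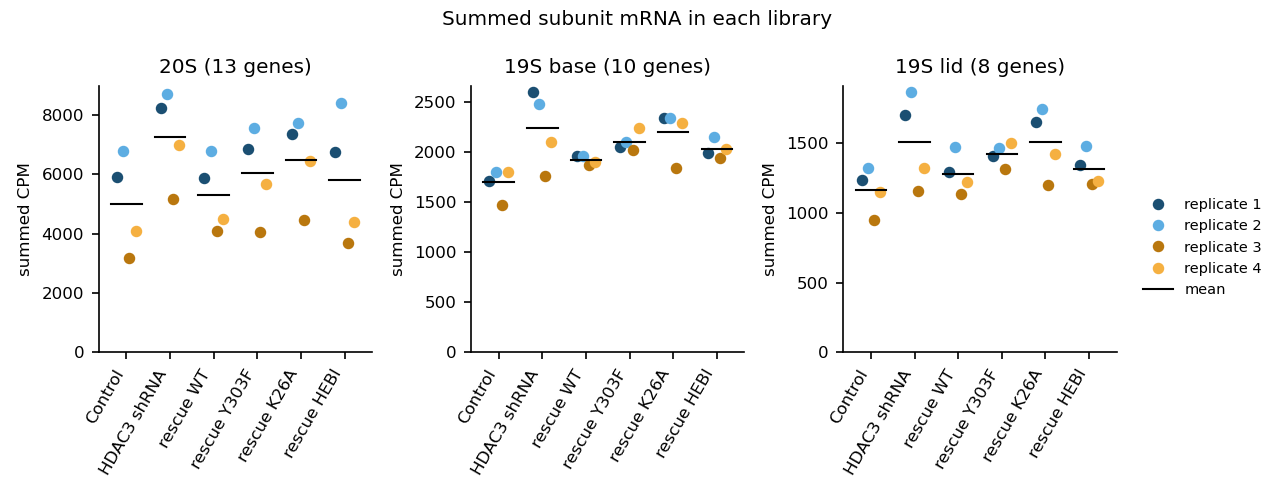
Summed CPM of the 20S, 19S base and 19S lid subunits in each library by genotype. Each point is a library, coloured by replicate number, and lines mark means. The HDAC3 shRNA libraries lie above the Control library of the same number in each sum, and replicates 3 and 4 lie below 1 and 2 for the 20S in every genotype.

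Gene by gene, 1 of the 36 tested members passed the test without the block, the ATPase subunit Rpt2, against 10% of all genes tested. At an unadjusted p under 0.05 there were 14, and DESeq2 called 1. The fitted change was positive for 31 of 31 standard subunits, with a median log2 fold change of 0.44 (1.35-fold) beside 0.013 over all genes. With the replicate block, 25 of 31 standard subunits rose and none fell, with a median of 0.47 (1.38-fold), where 27% of all genes rose and 26.9% fell. In all, 28 of 36 members passed this blocked test. Leaving out 1 library in turn kept that number between 21 and 30. Without the block the number was 2 without Control replicate 2, rescue Y303F replicate 1 or rescue HEBI replicate 2, and 5 without HDAC3 shRNA replicate 3. By another measure, 22 of the 31 standard subunits were higher in all 4 pairs, against 30% of genes.

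Scaling moved the size of this difference. With library totals alone in place of normalised library sizes, the median over all genes was -0.19 and the standard subunits' median was 0.24, with 27 of 31 positive. With the block, 17 of 31 then rose, where 13.7% of all genes did. Other features of the libraries moved with the knockdown too. Maternal RNAs summed to 2758 to 6084 CPM in Control and 4399 to 8301 CPM in HDAC3 shRNA, where none of the 7 passed without the block and 6 rose with it (median log2 fold change 0.59). Markers of differentiated late embryonic cells summed to 134 to 1254 CPM in Control and 13.6 to 172 CPM in HDAC3 shRNA. Of these 10 genes, 8 fell without the block and 10 with it (median log2 fold change -3.35, and -3.42 with the block). Of all genes, 10% passed without the block in either direction and 26.9% fell with it. Of 11 early zygotic genes tested, none passed without the block and 5 fell with it (median log2 fold change -0.47, and -0.33 with the block). The female germline RNA dhd was at 113 to 178 CPM in Control and 291 to 463 CPM in HDAC3 shRNA, and rose with the block (1.39) but did not pass without it. Their part in the higher proteasome levels was not tested.

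Rpt2 (FBgn0015282, on chromosome arm 3R, 23929873 to 23931558, minus strand, dm6 coordinates) encodes the ATPase that in yeast controls opening of the core's gate. Its level was 172, 193, 143 and 187 CPM in Control and 309, 308, 217 and 274 CPM in HDAC3 shRNA. All 4 knockdown libraries lay above all 4 Control libraries. The log2 fold change was 0.67 (SE 0.14, adjusted p = 0.00465), and with the replicate block 0.67 (adjusted p = 3.15e-05). Leaving out 1 library kept the adjusted p between 0.00186 and 0.0324. It was 0.0785 when only these 2 genotypes were fitted and 0.113 in replicates 3 and 4 alone. Rpt2 shares exon bases with CG31142 on the opposite strand.

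In the alpha ring, all 6 tested genes rose with the replicate block (median 0.66 on the log2 scale), and none passed without it. Prosalpha5 was at 539, 612, 276 and 340 CPM in Control and at 638, 724, 424 and 577 CPM in HDAC3 shRNA. Prosalpha3, whose N-terminal tail in yeast helps close the gate, was at 286, 362, 131 and 157 CPM in Control and at 442, 478, 197 and 261 CPM in HDAC3 shRNA. Both genes overlapped between the genotypes and were higher in the knockdown in each pair. With the block, the log2 fold change was 0.47 for Prosalpha5 (adjusted p = 7.66e-04) and 0.58 for Prosalpha3 (adjusted p = 8.92e-05). Prosalpha6, chosen after its values were seen as the ring's highest, had 0.72 with the block.

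In the beta ring, all 7 genes rose with the block (median 0.57), and none passed without it. Prosbeta6 was at 515, 582, 309 and 406 CPM in Control and at 692, 725, 465 and 662 CPM in HDAC3 shRNA. Prosbeta2 was at 324, 388, 207 and 276 CPM in Control and at 517, 516, 323 and 431 CPM in HDAC3 shRNA. The pattern was that of the alpha ring, with groups that overlapped and pairs that did not cross. The blocked log2 fold changes were 0.51 for Prosbeta6 (adjusted p = 1.00e-04) and 0.59 for Prosbeta2 (adjusted p = 7.34e-06). The genes for the other catalytic subunits, Prosbeta1 with the caspase-like site and Prosbeta5 with the chymotrypsin-like site, had 0.57 and 0.40.

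In the 19S base, 5 of 6 ATPase genes rose with the block (median 0.50) and 2 of 4 non-ATPase genes did (median 0.29). Rpt4 was at 592, 584, 409 and 489 CPM in Control and 728, 642, 509 and 666 CPM in HDAC3 shRNA, a blocked log2 fold change of 0.30 (adjusted p = 0.00594). Rpt5, the ATPase gene that did not pass, was at 74.4, 72.5, 95.5 and 128 CPM in Control and at 96.5, 100.2, 97.2 and 106 CPM in HDAC3 shRNA. Its Control libraries thus lay on both sides of the knockdown libraries. The ubiquitin receptor Rpn13 and the scaffold Rpn2 rose with the block, and Rpn1 and Rpn10 did not pass. Rpn1 was at 90.5, 82.3, 147 and 168 CPM in Control and at 137, 115, 152 and 139 CPM in HDAC3 shRNA (blocked log2 fold change 0.23, adjusted p = 0.243). Rpn10 was at 87.3, 85.5, 84.8 and 116 CPM in Control and 121, 120, 89.1 and 112 CPM in HDAC3 shRNA (blocked 0.25, adjusted p = 0.0518). Both were higher in the knockdown in replicates 1 and 2 and lower in replicate 4.

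In the lid, 5 of 8 genes rose with the block (median 0.37), namely Rpn3, Rpn5, Rpn6, Rpn8 and Rpn12. Rpn5 (FBgn0028690), a scaffold subunit, had the largest fitted change of the standard subunits without the block. It was at 154, 164, 105 and 115 CPM in Control and at 258, 317, 148 and 144 CPM in HDAC3 shRNA, higher in each pair. Its log2 fold change was 0.69 (SE 0.29, adjusted p = 0.143), and 0.63 (SE 0.12, adjusted p = 2.27e-04) with the block. Rpn12 was at 420, 474, 225 and 273 CPM in Control and 521, 538, 285 and 379 CPM in HDAC3 shRNA (blocked 0.32, adjusted p = 0.00528). Rpn8 was at 47.7, 59.5, 73.7 and 91.3 CPM in Control and at 95.5, 88.2, 87.5 and 80.3 CPM in HDAC3 shRNA (blocked 0.42, adjusted p = 0.0388). For Rpn8 the order of the genotypes turned in replicate 4. Rpn11, the deubiquitinase that strips ubiquitin from substrates, did not pass, with a blocked log2 fold change of 0.14.

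**Figure D3:**
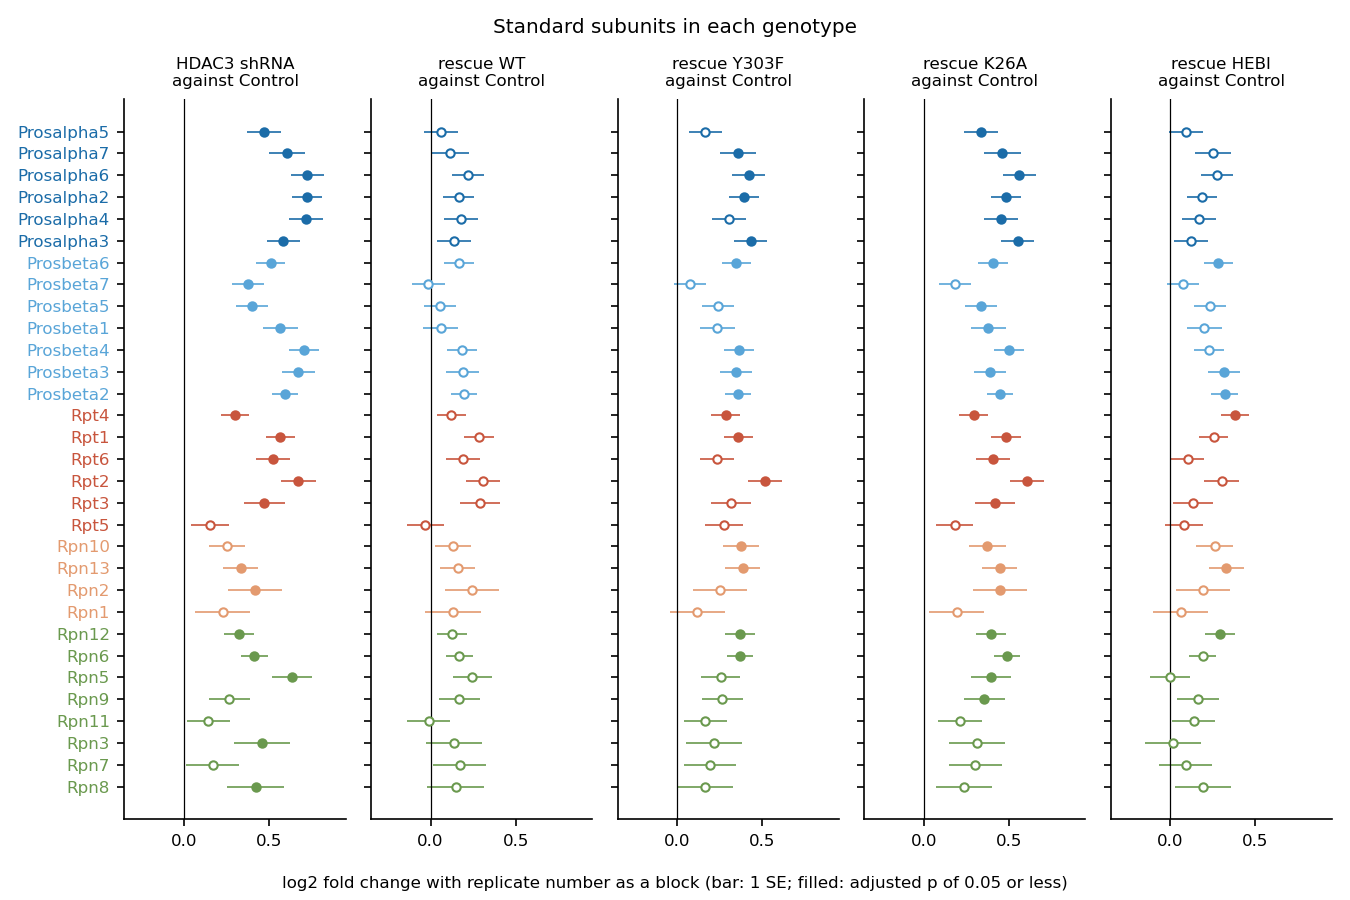
Log2 fold changes over Control of the 31 tested standard subunits (rows, coloured by subcomplex) in the 5 other genotypes (panels), from the fit with the replicate block. Points are fitted values, bars are 1 SE, and filled points passed the test. In HDAC3 shRNA 25 points are filled, in rescue K26A 24, in Y303F 15, in HEBI 6 and in rescue WT none.

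The core and the regulatory particle differed in how they varied between replicate numbers. In all 6 genotypes, each of the 13 core subunits was lower in replicates 3 and 4 than in 1 and 2, by a median of 1.55-fold (1.35-fold to 1.98-fold). Prosalpha3 and Prosalpha4 were 1.98-fold and 1.92-fold lower. The regulatory particle was mixed. Its ATPase genes Rpt1, Rpt3, Rpt4 and Rpt6 and lid genes Rpn5, Rpn6 and Rpn12 were also lower in all 6 genotypes, Rpn5 by 1.60-fold. Rpn1, Rpn7, Rpn9, Rpn11 and Rpt5 went the other way and were higher in replicates 3 and 4 in all 6 genotypes, Rpn11 by 2.01-fold. Over the 36 tested members, 20 were lower in replicates 3 and 4 in every genotype and 9 higher, where 29.4% of all genes were lower and 33.7% higher. The replicate number passed its own test for 33 of the 36 members, close to the 84% of all genes that did. The 3 that did not were Prosalpha6T, Rpn2 and Rpn3.

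The ratio of summed 20S to summed 19S CPM therefore ran from 1.81 to 2.32 (median 1.99) in the 12 libraries of replicates 1 and 2, and from 1.17 to 2.04 (median 1.41) in the 12 of replicates 3 and 4. The highest value among the latter, 2.04, was HDAC3 shRNA replicate 4, inside the range of replicates 1 and 2. Maternal RNAs differed along the same line, with 4941 to 8301 CPM in replicates 1 and 2 and 2571 to 5082 CPM in replicates 3 and 4. The sum of 16 testis markers went the other way, with 6.18 to 14.1 CPM against 20.3 to 30.9 CPM, and 1 gene carried it. That gene, mia, was at 4.78 to 11.8 CPM in replicates 1 and 2 and 16.8 to 27.0 CPM in replicates 3 and 4, whereas the other 15 summed to 0.907 to 4.87 CPM and 2.46 to 4.08 CPM. Mst84Da, Mst84Db, Mst84Dc and dj were at 0. Late embryonic markers summed to 13.6 to 363 CPM in replicates 1 and 2 and 74.1 to 1254 CPM in replicates 3 and 4. By genotype, they were higher in replicates 3 and 4 in Control, HDAC3 shRNA, Y303F and HEBI, and overlapped in rescue WT and K26A. Early zygotic sums were lower in replicates 3 and 4 in Control, rescue WT, Y303F and HEBI, overlapped in HDAC3 shRNA and were higher in K26A. The part of maternal RNA and other marker levels in these replicate differences was not tested.

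**Figure D4:**
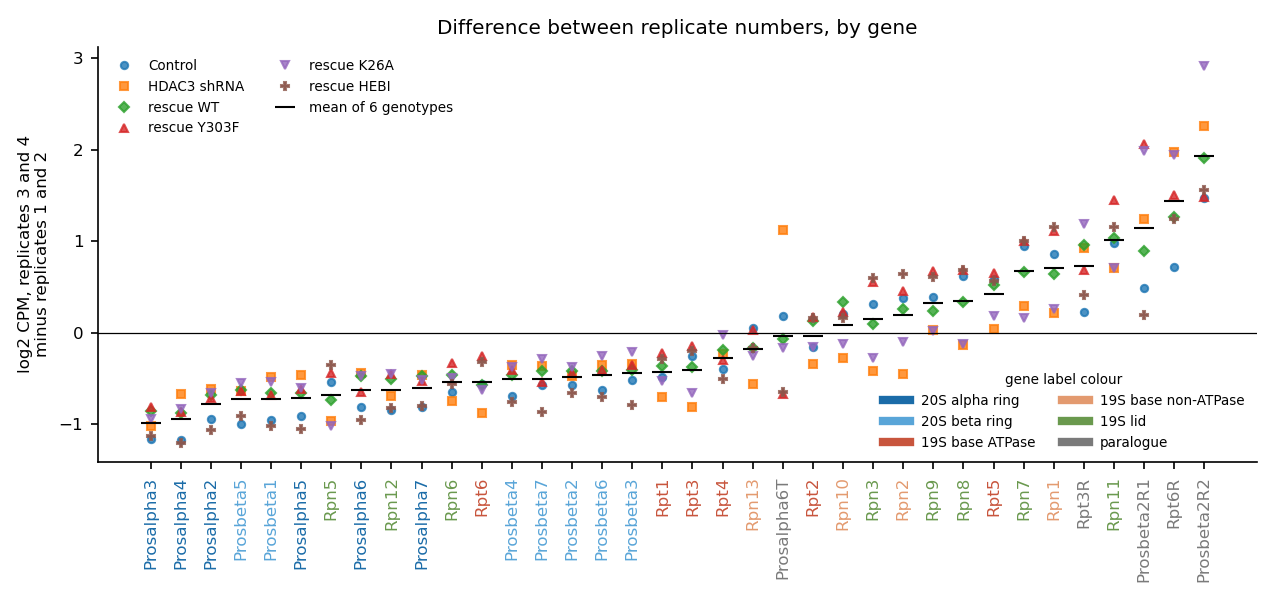
Difference in mean log2 CPM of replicates 3 and 4 minus replicates 1 and 2 for each tested member, with 1 point per genotype and a line at the mean of the 6. Gene names are coloured by subcomplex. The 13 core subunits lie below 0 in all 6 genotypes, while Rpn11, Rpt6R and Prosbeta2R2 lie above 0 in all 6.

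The fitted knockdown difference also shifted along this line. Each side had 2 libraries per genotype, and subunits that vary together are not independent of each other. From replicates 1 and 2 to replicates 3 and 4, the log2 fold change of HDAC3 shRNA against Control was larger for 13 of 13 core subunits (median difference 0.34, from 0.11 to 0.51) and smaller for 16 of 18 subunits of the regulatory particle (median -0.46, from -0.84 to 0.17). The exceptions were Rpt4 and Rpn12. No single member passed the edgeR test of this difference, with 9 at an unadjusted p under 0.05 and the lowest adjusted p of 0.0692 for Rpn2 (-0.84, SE 0.18), and 0.03% of all genes passed. The test was not run in DESeq2. The count became 1 without rescue Y303F replicate 1 or replicate 4. Summed over subunits, the pairwise folds were 1.40, 1.28, 1.62 and 1.72 for the 20S, 1.52, 1.38, 1.20 and 1.16 for the base, and 1.38, 1.41, 1.21 and 1.15 for the lid.

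For rescue K26A against Control, 3 members passed the same test of a difference between replicate numbers, against 8.99% of genes. They were Rpn7 (-0.79, adjusted p = 0.0140), Rpn1 (-0.61, adjusted p = 0.0477) and the paralogue Rpt3R (1.0, adjusted p = 0.0402). Single libraries decided this count. It was 0 without Control replicate 4 or K26A replicate 3. It was 1 without replicates 1 or 2 of Control or K26A, replicates 3 or 4 of rescue WT, or replicates 3 or 4 of HEBI. It was 5 without HDAC3 shRNA replicate 4, Y303F replicate 1, K26A replicate 4 or HEBI replicates 1 or 2, and 6 without Y303F replicate 4.

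The next comparisons asked how near each rescue came to Control, and they share the 4 Control libraries. With rescue WT, the standard subunits together were 1.03-fold to 1.26-fold the Control level in the 4 pairs. No member passed edgeR's test, with 1 at an unadjusted p under 0.05 and none called by DESeq2, against 0.44% of genes. None passed with the replicate block either (8 at an unadjusted p under 0.05, none by DESeq2, lowest adjusted p of 0.0607), against 5.32% of genes. The standard subunits' median log2 fold change was 0.13, and 0.16 with the block. The blocked count was 1 without HDAC3 shRNA replicate 1 or 3, rescue Y303F replicate 2 or rescue K26A replicate 3.

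Rescue K26A had the most members past the blocked test among the rescues. Its standard subunits together were 1.19-fold to 1.44-fold the Control level, and the median log2 fold change was 0.38. Without the block Rpt2 alone passed (7 at an unadjusted p under 0.05), against 3.94% of genes. With the replicate block 24 of 31 standard subunits rose, where 18.6% of all genes rose and 15.2% fell, comprising 6 alpha, 6 beta, 5 ATPase, 3 non-ATPase and 4 lid genes. Rpt2 was at 279, 277, 212 and 292 CPM in rescue K26A, above every Control library, with a log2 fold change of 0.61 (SE 0.14, adjusted p = 0.0180), or adjusted p = 2.91e-04 with the block. The unblocked call on Rpt2 was lost without Control replicate 3 (adjusted p = 0.127) or without K26A replicate 1, 2 or 4 (0.102, 0.0537 and 0.0572). The blocked count over the 36 members, 25 with the paralogue Rpt6R, was 16 without Control replicate 3 or K26A replicate 1. With library totals alone it was 14, where 4.77% of all genes rose.

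Rescue Y303F and rescue HEBI had fewer. In Y303F the standard subunits together were 1.12-fold to 1.34-fold the Control level (median log2 fold change 0.28). No member passed edgeR's unblocked test (4 at an unadjusted p under 0.05, 1 by DESeq2), against 0.92% of genes, and 15 of 31 rose with the replicate block, against 6.2% of genes. Those were 4 alpha, 4 beta, 3 ATPase, 2 non-ATPase and 2 lid genes. The blocked count was 6 without Control replicate 3, 9 without Control replicate 4 or Y303F replicate 1 or 3, and 3 without Y303F replicate 4. With library totals alone it was 9, where 2.93% of genes rose. Rpt2 was at 236, 229, 243 and 284 CPM in Y303F, above all Control libraries, with a blocked log2 fold change of 0.52 (adjusted p = 0.00265).

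In HEBI the standard subunits together were 1.09-fold to 1.21-fold the Control level (median log2 fold change 0.20). No member passed edgeR's unblocked test (3 at an unadjusted p under 0.05, 1 by DESeq2), against 0.66% of genes. The unblocked count was 1 without HDAC3 shRNA replicate 2 or rescue Y303F replicate 1, 2 or 3. With the block 6 of 31 standard subunits rose (Prosbeta2, Prosbeta3, Prosbeta6, Rpt4, Rpn12 and Rpn13), against 4.38% of genes. With the paralogue Prosalpha6T this made 7 members, a count that fell to between 0 and 4 on leaving out any library but HDAC3 shRNA replicate 1 or 3, rescue WT replicate 3, K26A replicate 4 or HEBI replicate 4, and was 0 without HEBI replicate 2. With library totals alone it was 3, where 1.74% of genes rose. Rpt2 was at 183, 221, 208 and 242 CPM in HEBI and at 197, 212, 220 and 226 CPM in rescue WT, and in HEBI the lowest library lay within the Control range.

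The rescues were then set against HDAC3 shRNA, whose libraries these 4 comparisons share. Rescue WT held 0.729-fold to 0.878-fold the knockdown's summed level of standard subunits, and 0.643-fold to 0.794-fold of the 20S. No member passed edgeR's unblocked test (2 at an unadjusted p under 0.05, none by DESeq2), against 1.22% of genes. With the block 18 of 31 standard subunits fell, against 15.3% of genes, with a median log2 fold change of -0.33. All 6 alpha and all 7 beta genes fell, with 3 ATPase and 2 lid genes and no base non-ATPase gene. In the 4 pairs, 16 of 31 were lower in every pair, against 24.3% of genes. Rpt2 fell with the block (-0.36, adjusted p = 0.0106).

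In rescue HEBI, 19 of 31 standard subunits fell against the knockdown with the block, where 20.7% of genes fell and 21.7% rose, including all 6 alpha and 6 of 7 beta genes. In Y303F 11 fell, where 18.5% of genes fell and 17.7% rose, including 4 alpha, 5 beta, 1 ATPase and 1 lid gene. Without the block no member passed in either (4 and 1 at an unadjusted p under 0.05, none by DESeq2), against 2.19% and 0.82% of genes. In rescue K26A no member passed edgeR's test without the block (none at an unadjusted p under 0.05, none by DESeq2) or with it (5 at an unadjusted p under 0.05, lowest adjusted p of 0.0772), against 0.21% and 8.04% of genes. DESeq2 with the replicate number as a term called 2, and edgeR's blocked count was 2 without K26A replicate 4 and 4 without HEBI replicate 2. The medians of the standard subunits without the block were -0.35 in rescue WT, -0.20 in Y303F, -0.093 in K26A and -0.27 in HEBI.

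Set directly against rescue WT, few members passed in the mutant rescues, in 3 comparisons that share the rescue WT libraries. Without the block no member passed edgeR's test in Y303F, K26A or HEBI (0, 1 and 1 at an unadjusted p under 0.05, none by DESeq2), where 0.02%, 0.13% and 0.04% of genes passed. Neither Y303F nor HEBI had a member past the blocked test (11 and 4 at an unadjusted p under 0.05, none by DESeq2), against 0.89% and 1.69% of genes. In K26A, 2 rose with the block, against 1.06% of genes: the lid scaffold Rpn6 (0.32, SE 0.078, adjusted p = 0.0284) and Prosalpha3 (0.41, SE 0.098, adjusted p = 0.0249), both named because they passed. Rpn6 was at 389, 419, 292 and 294 CPM in rescue WT and at 512, 507, 358 and 366 CPM in K26A, higher in each pair. Prosalpha3 was at 294, 344, 176 and 174 CPM in rescue WT and at 430, 440, 177 and 291 CPM in K26A. DESeq2 with the replicate number called 10, a count given without the share of all genes. The blocked count was 0 without replicate 1, 2 or 4 of either genotype, 1 without Control replicate 1 or 3 or K26A replicate 3, 4 without HDAC3 shRNA replicate 4, 5 without Y303F replicate 4, 8 without rescue WT replicate 3 and 9 without HEBI replicate 2. In replicates 1 and 2 alone, the blocked count was 15 in K26A and 16 in HEBI, again without the share of all genes. Summed 20S folds over rescue WT in replicates 1 to 4 were 1.25, 1.14, 1.09 and 1.43 in K26A. In HEBI they were 1.15, 1.24, 0.897 and 0.976, so the direction turned in replicates 3 and 4.

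The 5 tested paralogues had 1 to 254 counts in a library, and their fitted changes in the knockdown had both signs. Prosalpha6T (FBgn0032492, a single exon on arm 2L, 13232039 to 13233058, plus strand) is the testis paralogue of the alpha ring gene Prosalpha6. It was at 0.197, 0.179, 0.241 and 0.213 CPM in Control and at 0.525, 0.195, 0.638 and 1.10 CPM in HDAC3 shRNA, so that 3 of 4 knockdown libraries lay above Control. The log2 fold change was 1.55 (SE 0.54, adjusted p = 0.0706), and with the replicate block 1.56 (SE 0.54, adjusted p = 0.0215). Without Y303F replicate 1 the unblocked adjusted p was 0.0321. In rescue HEBI it was at 1.04, 1.55, 0.691 and 0.861 CPM, above every Control library, with a log2 fold change over Control of 2.28 (SE 0.54, adjusted p = 0.0506), or 2.30 with the block (adjusted p = 0.0122). In K26A the log2 fold change over Control was 1.08 (SE 0.54, adjusted p = 0.333), and in rescue WT over the knockdown it was -0.72 (SE 0.51, adjusted p = 0.713).

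The paralogues of Prosbeta2 and of the ATPases were lower in the knockdown or did not pass. Prosbeta2R1 was at 0.788, 0.298, 0.724 and 0.746 CPM in Control and at 0.0583, 0.146, 0.491 and 0.274 CPM in HDAC3 shRNA, lower in each pair. Its log2 fold change was -1.36 (SE 0.71, adjusted p = 0.242), and -1.52 (SE 0.56, adjusted p = 0.0281) with the replicate block. Prosbeta2R2 was at 1.62, 1.73, 4.59 and 5.06 CPM in Control and at 0.933, 0.536, 3.24 and 4.43 CPM in HDAC3 shRNA, and it too fell with the block (-0.73, SE 0.29, adjusted p = 0.0421). In rescue WT, Prosbeta2R1 had a log2 fold change of 1.03 over the knockdown (SE 0.71, adjusted p = 0.702).

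Rpt6R, the paralogue of the ATPase gene Rpt6, was at 1.53, 1.07, 2.11 and 2.24 CPM in Control and at 0.175, 0.83, 1.82 and 1.96 CPM in the knockdown. Its fitted log2 difference was -0.53 (SE 0.66, adjusted p = 0.642), and -0.81 with the block (adjusted p = 0.0552). In K26A it was at 0.312, 0.392, 1.47 and 1.81 CPM, with a log2 fold change of -0.80 (SE 0.66, adjusted p = 0.618), and -1.09 (SE 0.35, adjusted p = 0.0222) with the block. Rpt3R, the paralogue of Rpt3, was at 6.06, 4.41, 6.10 and 6.02 CPM in Control and at 4.14, 3.56, 6.73 and 8.15 CPM in HDAC3 shRNA, where it lay below Control in replicates 1 and 2 and above it in 3 and 4. These genes also differed between replicate numbers: Prosbeta2R2 was 3.81-fold and Rpt6R 2.71-fold higher in replicates 3 and 4. Of the testis markers, mia was higher in the same replicates, and the sums of the other 15 overlapped between the replicates, with 3 of them (comr, nht and topi) higher in replicates 3 and 4 in all 6 genotypes. With the block, Rpt3R and Prosbeta2R1 rose over the knockdown in both Y303F and HEBI, Rpt6R rose in Y303F and Prosbeta2R2 in HEBI.

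**Figure D5:**
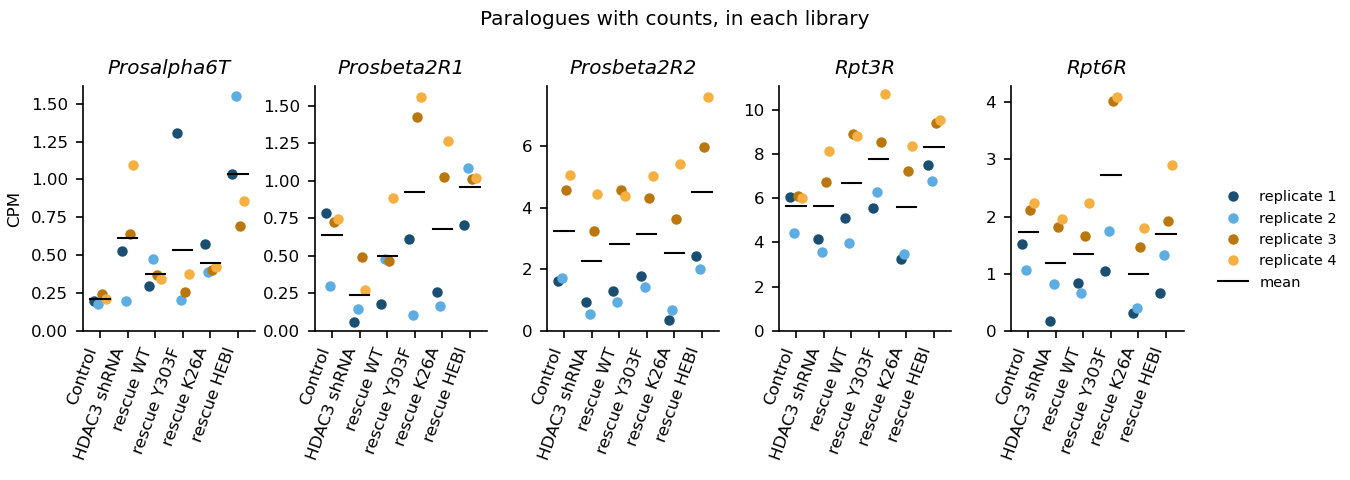
CPM of the 5 tested paralogues in each library, by genotype, with points coloured by replicate number and lines at the means. In Prosalpha6T the 4 HEBI libraries lie above every Control library, and in Prosbeta2R2 replicates 3 and 4 lie above replicates 1 and 2 in every genotype.

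Other genes of the ubiquitin and proteasome pathway were read from a list of 49, of which 42 were in the table and 41 tested. Without the block 1 rose in HDAC3 shRNA over Control (9 at an unadjusted p under 0.05), below the 10% of all genes that passed. It was eff, a ubiquitin-conjugating enzyme, at 698, 671, 442 and 481 CPM in Control and 803, 1202, 868 and 918 CPM in HDAC3 shRNA, with no overlap between the genotypes (log2 fold change 0.73, SE 0.21, adjusted p = 0.0287). With the replicate block 23 rose and 1 fell, with a median of 0.32, beside 27% and 26.9% of all genes. These were 7 of 12 genes listed under regulators and assembly, 4 of 5 shuttles and unfoldase genes and 12 of 24 genes for ubiquitin and its enzymes. The 7 included Sem1 (blocked 0.61, adjusted p = 0.00525), whose symbol falls outside the rule for members. The one that fell, CG9588, is the fly homologue of a mammalian chaperone of base assembly, and was at 15.3, 10.9, 26.4 and 36.4 CPM in Control and 9.80, 9.07, 22.7 and 27.3 CPM in HDAC3 shRNA (blocked -0.40, adjusted p = 0.0128).

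Of the other genes on the list, cnc, Rad23, Pomp and REG were chosen after their values were seen. The gene cnc, which encodes CncC and other isoforms that the counts do not separate, was at 67.7, 60.4, 61.2 and 42.6 CPM in Control and 165, 158, 90.2 and 48.0 CPM in HDAC3 shRNA, higher in each pair but by much more in replicates 1 and 2. Its log2 fold change was 0.99 (SE 0.46, adjusted p = 0.183), and 0.84 (SE 0.22, adjusted p = 0.00432) with the block. Rad23, a shuttle that carries ubiquitinated proteins to the proteasome, was at 321, 355, 199.7 and 246 CPM in Control and 389, 619.6, 354 and 409 CPM in HDAC3 shRNA (0.66, SE 0.26, adjusted p = 0.113, and adjusted p = 1.57e-05 with the block). The 20S assembly chaperone Pomp and the activator REG rose with the block by 0.45 and 0.44. From the same list maf-S, Keap1 and PI31, also chosen after their values were seen, did not pass. Their mean CPM in Control and HDAC3 shRNA was 91.9 and 92.7 for maf-S, 83.3 and 72.2 for Keap1, and 88.0 and 93.9 for PI31. With the block, 14 of the 41 rose in K26A over Control (18.6% of all genes), 1 in rescue WT (3.18%), 2 in Y303F (6.2%) and 4 in HEBI (4.38%). Against the knockdown, 9 fell and 1 rose in rescue WT (15.3% and 16.8% of all genes), 16 fell and 2 rose in Y303F (18.5% and 17.7%), and 16 fell and 5 rose in HEBI (20.7% and 21.7%).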

How the data were processed

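Total RNA was extracted with TRIzol LS from pooled embryos, made into stranded libraries and sequenced on a NextSeq. The authors aligned reads to dm6 with STAR at default settings, ran featureCounts for gene totals, and deposited raw whole-number counts for the 24 libraries, without tool versions in the sources used here. DESeq2 is also named in the submitters' processing notes. Gene identifiers were named with Ensembl release 115. Identifiers without a name there held 5.23 to 6.20% of counts and were kept. Promoter motifs were not searched.

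Counts were tested with edgeR 4.0.16 (R 4.3.3, limma 3.58.1): TMM factors (0.862 to 1.23), filterByExpr, 1 quasi-likelihood model over all 24 libraries with a mean per genotype, and Benjamini-Hochberg adjustment over 10003 genes for each of 12 contrasts. The scripts were tested on simulated data. CPM used TMM library sizes, and log2 CPM, for pairing and replicate differences, a prior count of 2. Levels per kb used exon bases shared with no other gene. Replicate numbers were checked for pairing: deviations from genotype means correlated positively in all 60 same-number pairs (r from 0.184 to 0.797, median 0.615), so the replicate block stands beside each comparison. Pairs with different numbers are not given beside them, so the correlations do not show that samples correspond number by number. Other settings were DESeq2 1.42.0, other scalings, no filter, only the genotypes compared, replicate subsets, a log2 fold change of 1 or more in size, and leaving out each library. Sums and tables used Python 3.11.15 with pandas 2.3.3.

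Members were given in full where they passed the unblocked test, changed most in either direction, were highest or lowest per kb in a subcomplex, differed most between replicates, or were paralogues with at least 10 counts. The members, the lists and these rules were chosen with earlier results of these data known. Standard subunits held 0.690 to 1.20% of raw counts, and 13 of them share exon bases with a gene on the opposite strand.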

Additional observations from a re-analysis of the deposited data

Results flagged for a closer look

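Among 138 groups of 4 replicates tested for a sample far from the others, 6 were flagged, and chance flags about 1 in 20 such groups. Prosalpha6T stood at 1.31 CPM in Y303F replicate 1, where the other Y303F libraries had 0.206 to 0.379, and at 0.571 CPM in K26A replicate 1, where the others had 0.392 to 0.421. Control replicate 2 was low for Prosbeta2R1, at 0.298 CPM beside 0.724 to 0.788, and for Rpt3R, at 4.41 CPM beside 6.02 to 6.10. Control replicate 4 was high for Rpn10, at 116 CPM beside 84.8 to 87.3. The summed 19S base subunits stood at 1841 CPM in K26A replicate 3 and at 2285 to 2343 CPM in the other K26A libraries. For 3 of 36 members, near the 8.99% of all genes, the change of K26A over Control differed between replicates 1 and 2 and replicates 3 and 4 by edgeR's test of that difference: Rpn7 by -0.79 on the log2 scale (adjusted p = 0.0140), Rpn1 by -0.61 (adjusted p = 0.0477) and Rpt3R by 1.0 (adjusted p = 0.0402). Without Control replicate 4 or K26A replicate 3 none passed.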

How the results depend on the processing

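Values here are numbers of the 36 tested members past the test. They are given without the share of all genes under each setting and are not read as results about the members. The replicate block, in a paired fit, took HDAC3 shRNA over Control from 1 to 28, Y303F over Control from 0 to 15, K26A over Control from 1 to 25 and HEBI over Control from 0 to 7. Against the knockdown it took rescue WT from 0 to 18, Y303F from 0 to 14 and HEBI from 0 to 22, and K26A against rescue WT from 0 to 2. Without the block, fitting only the genotypes compared, or asking for a log2 fold change of 1 or more in size, gave 0 for HDAC3 shRNA and 0 for K26A over Control. Replicates 1 and 2 alone gave 18 and 14 for these, and 1, 9 and 13 for rescue WT, Y303F and HEBI against the knockdown, and there Prosalpha6T in rescue WT against the knockdown turned from -0.72 to 0.18. Replicates 3 and 4 alone gave 3 and 0 for HDAC3 shRNA and K26A over Control and 1 for Y303F against the knockdown. DESeq2 gave 1 each for Y303F and HEBI over Control, DESeq2 size factors 1 for HEBI over Control, and library totals 0 for K26A over Control. In the test of the difference between replicate numbers, library totals gave 1 for HDAC3 shRNA and 6 for K26A, size factors 1 for HDAC3 shRNA, and no filter 1 for K26A. With the replicate block, replicates 1 and 2 alone gave 4 for rescue WT and 5 for Y303F over Control, 24 for Y303F and 1 for K26A against the knockdown, and 15 for K26A and 16 for HEBI against rescue WT. With the block, replicates 3 and 4 alone gave 7 for Y303F and 0 for HEBI over Control, 10 for rescue WT against the knockdown and 0 for K26A against rescue WT. With the block, library totals gave 9, 14 and 3 for Y303F, K26A and HEBI over Control, 2 for K26A against the knockdown and 1 for K26A against rescue WT. With the block, size factors gave 3 for HEBI over Control and 5 for K26A against rescue WT, no filter gave 3, 3 and 1 for HEBI over Control, K26A against the knockdown and K26A against rescue WT, and DESeq2 gave 2 and 10 for the latter 2. The cause of these differences was not tested.

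Leaving out 1 library at a time, the unblocked count ran from 1 to 5 for HDAC3 shRNA over Control, from 0 to 1 for K26A over Control and from 0 to 1 for HEBI over Control. With the block it ran from 0 to 1 for rescue WT, 3 to 16 for Y303F, 16 to 25 for K26A and 0 to 10 for HEBI over Control, from 0 to 4 for K26A against the knockdown and from 0 to 9 for K26A against rescue WT, and the difference between replicate numbers ran from 0 to 1 for HDAC3 shRNA and 0 to 6 for K26A. With the block, the range was 21 to 30 for HDAC3 shRNA over Control, and against the knockdown 14 to 20 for rescue WT, 10 to 18 for Y303F and 15 to 22 for HEBI. In all, 712 of these counts under other settings stayed within 1.5 times the value reported and 125 did not. Of the single genes' changes, 311 kept direction and side of the threshold, 9 lost the threshold, 7 gained it and 1 turned. Depth limited the paralogues most, which had 1 to 254 counts in a library.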
